A study of Mus musculus with 8 samples.

Results

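The semaphorin, ephrin, Slit and netrin guidance genes were examined in mouse mesenchymal stem cell cultures in which all 3 hyaluronan synthase genes (Has1, Has2 and Has3) were targeted and in wildtype cultures. Members were all loci of the deposited table whose gene name belongs to the semaphorins Sema3 to Sema7, the plexins, the neuropilins, the ephrins, the Eph receptors, the Slits, the Robo receptors, the netrins, or the netrin receptors Unc5, Dcc and Neo1. This gave 59 loci with 58 gene names, out of 49782 gene names and 76557 loci in all. Of the 58 genes, 34 reached 1 FPKM in at least 4 libraries and were tested. FPKM, fragments per kilobase of transcript per fixed number of sequenced fragments, is a level corrected for transcript length and library size. No locus carries the name Sema3b, Sema6c, Plxna2, Plxnb1, Plxnd1, Nrp1, Nrp2, Efna2, Efna5, Slit3, Ntn3 or Neo1, and these 12 genes were not analysed here.

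The 4 Has-tKO cultures came from mice that lack Has1 and Has3 constitutively and carry a Has2 allele deleted once 4-hydroxytamoxifen activates Cre. The submitters state that they checked the loss of Has2 by ELISA and RT-PCR. The 4 wildtype cultures came from C57Bl6/J mice and were given the same 4-hydroxytamoxifen. Each library is 1 mouse, and all cultures were labelled as mesenchymal stem cells (MSc) of femur and tibia. They were cultured over 4 passages, with the drug present for 48 h in passages 2 and 3. All were taken on day 7 of osteogenic differentiation. The promoter that drives Cre, the age of the mice and the genetic background of the Has-tKO line are not stated in the labels used here.

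Guidance cues were named for steering growing axons, and most also act between cells outside the nervous system. Semaphorins bind plexins, and most of the secreted class 3 semaphorins also need neuropilins. Ephrins sit on the membrane of one cell and Eph receptor kinases on its neighbour, and both cells receive a signal. Slits bind Robo receptors, and netrins bind Dcc, neogenin (Neo1) and the Unc5 receptors. In mouse bone, ephrin-B2 and EphB4 are known from contacts between osteoclasts and osteoblasts, and semaphorin 4D from osteoclasts is known to restrain osteoblasts.

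Of the 3 targeted genes Has3 alone carries a name in the table, at 0.663, 0.576, 0.621 and 0.150 FPKM in Has-tKO 1 to 4 and 0.236, 0.415, 0.466 and 0.394 FPKM in wildtype 1 to 4 (exact permutation p = 0.371, two-sided, n = 4 each). Of the Has-tKO libraries 3 lay above every wildtype library and 1 below, so the level of Has3 does not show the loss that the labels give. The deleted part of Has3 is not stated in the labels, and Has-tKO and wildtype stand here for the libraries so labelled, also in every direction given. Wildtype 1 stood apart from the other libraries, and Has-tKO 4 did so in the share of FPKM that fell on unnamed loci, 56.4% in Has-tKO 4 and 61.5% in wildtype 1, against 47.0% to 48.7% in the other Has-tKO and 45.4% to 47.9% in the other wildtype libraries. The size factor of wildtype 1, the typical ratio of its gene levels to the average library, was 0.684, where the 4 Has-tKO libraries had 1.04 to 1.11 and the other wildtype libraries 0.990 to 1.08, and its most abundant locus took 30.4% of its FPKM, against 15.02% to 18.57% in Has-tKO and 14.2% to 18.4% in the other wildtype libraries. The median log2 fold change of all 9915 tested genes was 0.16 on the deposited FPKM and 0.01 after division by the size factors, so fold changes of the guidance genes are given as deposited and after scaling. Stromal markers were present (summed FPKM 378 to 445 in Has-tKO and 236 to 464 in wildtype). Myeloid markers were present too (summed FPKM 663 to 1069 in Has-tKO and 390 to 667 in wildtype), so the cultures were not stromal cells alone. Lymphocyte markers lay near 0 (summed at most 0.488 FPKM in Has-tKO and 0.290 FPKM in wildtype), and 1 of 12 endothelial markers reached the level for testing.

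Among the members, 2 fell in Has-tKO after scaling, the receptor Ephb3 and its ligand ephrin-B2 (Efnb2). Their promoters are shown because these were the only members that passed the test in that fit, and that of Sema7a, the tested semaphorin with the highest mean level, is shown for comparison. The sequences are from RefSeq (GRCm38.p6), 250 bases before to 50 bases after the annotated start, and such entries were found for 30 of the 34 tested genes. Capitals mark the GC box GGGCGG on either strand. Ephb3 lies at chr16:21204545-21204844 on the plus strand, Efnb2 at chr8:8661193-8661492 on the minus strand and Sema7a at chr9:57939862-57940161 on the plus strand.
Ephb3 promoter: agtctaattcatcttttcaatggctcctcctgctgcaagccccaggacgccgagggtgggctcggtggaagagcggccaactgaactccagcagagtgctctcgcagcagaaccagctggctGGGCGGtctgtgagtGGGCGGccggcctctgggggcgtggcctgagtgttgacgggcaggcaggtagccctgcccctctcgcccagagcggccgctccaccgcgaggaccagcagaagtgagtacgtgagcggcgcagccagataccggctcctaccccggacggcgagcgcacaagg
Efnb2 promoter: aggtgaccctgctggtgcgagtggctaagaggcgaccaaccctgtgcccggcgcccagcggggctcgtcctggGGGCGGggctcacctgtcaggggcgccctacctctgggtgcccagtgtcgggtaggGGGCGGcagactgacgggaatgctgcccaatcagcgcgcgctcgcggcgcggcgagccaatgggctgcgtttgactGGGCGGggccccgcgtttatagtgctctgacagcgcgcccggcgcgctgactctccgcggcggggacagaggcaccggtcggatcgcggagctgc
Sema7a promoter: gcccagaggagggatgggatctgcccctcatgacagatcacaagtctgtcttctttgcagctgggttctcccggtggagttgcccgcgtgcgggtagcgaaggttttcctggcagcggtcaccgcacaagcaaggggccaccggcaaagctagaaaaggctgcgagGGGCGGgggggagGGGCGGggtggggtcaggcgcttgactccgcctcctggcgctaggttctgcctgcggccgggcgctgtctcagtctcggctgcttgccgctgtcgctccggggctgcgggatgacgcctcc
The GC box was found 2 times in the Ephb3 window, 3 times in the Efnb2 window and 2 times in the Sema7a window, so it did not separate the genes that fell from Sema7a. It stood in 35.7% of 32851 promoters of this length, and in 31 of the 43 promoters of tested guidance genes. These 43 belong to 30 genes, some with several starts and, for Sema4a, overlapping windows, so they are not independent. The letters of an Egr1 motif, GCGNGGGCG, and of an NF-kappaB motif, GGGNNTTCC, searched on both strands, were in none of the 3 windows. They stood in 5.55% and 5.82% of all promoters, and in 7 and 3 of the 43. The letters TATAAA, also searched on both strands, were held by 13.6% of promoters and by 1 of the 43. They occurred in 1 of the 3 windows, that of Efnb2, as TTTATA in the printed sequence, so on the opposite strand. These matches describe the letters only and were not tested as binding sites.

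On the deposited FPKM, limma called 0 of the 34 tested guidance genes at an adjusted p under 0.05, where 1.78% of all tested genes (176 of 9915) were called, 1.58% higher and 0.192% lower in Has-tKO. At an unadjusted p under 0.05 it found 6 guidance genes higher and 3 lower, against 14.4% higher and 2.30% lower among all tested genes (16.7% in all). After scaling, limma called 2 of 34, or 5.88%, both lower in Has-tKO, where 2.82% of all tested genes (280 of 9915) were called, 1.73% higher and 1.09% lower. At an unadjusted p under 0.05 there were then 5 guidance genes higher and 7 lower, against 10.7% higher and 7.77% lower among all tested genes (18.5% in all).

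The values of the 4 Has-tKO and the 4 wildtype libraries did not overlap for 6 of the 34 as deposited, against 13.6% of all tested genes. Has-tKO was higher in 4 of these (Sema4d, Sema7a, Plxna1 and Ntn1, background 12.0%) and lower in 2 (Efna1 and Efnb2, background 1.53%). After scaling they did not overlap for 10 of 34, against 12.9%. Has-tKO was higher in the same 4 (background 7.18%) and lower in 6 (Sema3g, Efna1, Efnb2, Epha2, Ephb3 and Ephb6, background 5.76%), of which 5 are ephrins or Eph receptors. The median log2 fold change of the 34 genes was 0.08 on the deposited FPKM, 20 being above 0 and 14 below. After scaling it was -0.05, 14 being above 0 and 20 below. Of all 9915 tested genes 7272 lay above 0 and 2643 below as deposited, and 5108 above and 4807 below after scaling. The medians of all tested genes were 0.16 as deposited and 0.01 after scaling. Both medians of the 34 lay below these, and the difference was not tested.

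**Figure D1:**
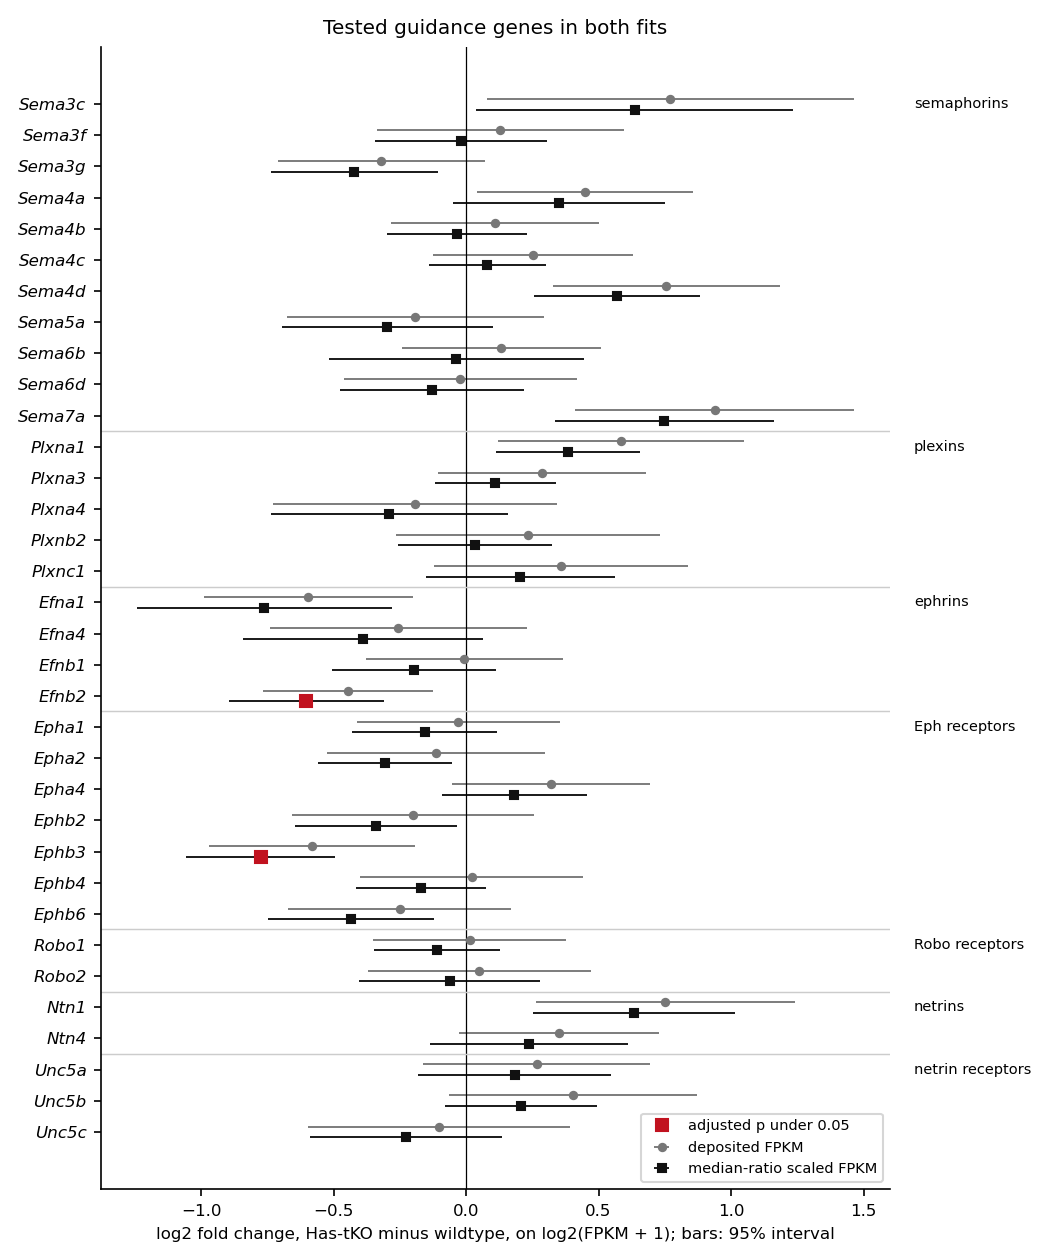
Log2 fold change (Has-tKO minus wildtype, on log2(FPKM + 1)) of the 34 tested guidance genes, with 95% intervals from limma, on deposited FPKM (grey circles) and after median-ratio scaling (black squares). Red marks an adjusted p under 0.05. Efnb2 and Ephb3 after scaling are the only red points, and every estimate moves to the left with scaling.

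Markers of macrophages moved with the genotype, and a bulk measurement cannot tell more cells of a type from more RNA per cell. Of 21 myeloid markers 17 had a locus and 16 were tested, and none of the 17 was at 0 in every library. All 16 lay above 0 on both scales, where 7272 of all 9915 tested genes did as deposited and 5108 after scaling. On the deposited scale 3 rose (Cx3cr1, Spi1 and Cd52), and after scaling 3 (Cx3cr1, Cybb and Clec7a), so only Cx3cr1 was called on both. Among all tested genes 1.58% were called higher as deposited and 1.73% after scaling. Their summed level was 663 to 1069 FPKM in Has-tKO and 390 to 667 FPKM in wildtype. Of 10 osteoclast markers 5 were tested and none was called, with a summed level of 27.8 to 52.7 FPKM in Has-tKO and 35.9 to 113 FPKM in wildtype. Acp5 (log2 fold change -1.47, limma adjusted p = 0.0653, and scaled -1.66, 0.0512) and Mmp9 (-1.23, 0.131, and scaled -1.41, 0.0784) lay below 0. Atp6v0d2 (0.13, and scaled -0.06), Itgb3 (0.41, and scaled 0.26) and Nfatc1 (0.25, and scaled 0.09) lay above 0 as deposited. Of 10 tested chondrocyte markers 3 fell as deposited and 4 after scaling. Of 6 tested osteoblast markers 0 passed as deposited and 2 fell after scaling. Among all tested genes 0.192% were called lower as deposited and 1.09% after scaling. The summed chondrocyte level was 166 to 237 FPKM in Has-tKO and 195 to 323 FPKM in wildtype (11 of 15 listed markers had a locus). It rested mostly on Col2a1, which was not called on either scale. The summed osteoblast level was 177 to 263.5 FPKM in Has-tKO and 254 to 540 FPKM in wildtype (8 of 13 had a locus). It rested mostly on Ibsp and Alpl. On both scales 1 tested chondrocyte marker, Sox5 (0.12, and scaled 0.03), and 1 osteoblast marker, Dmp1 (0.62, and scaled 0.44), lay above 0. The 2 tested neural and Schwann cell markers were not called. S100b had 4.52 to 5.53 FPKM in Has-tKO and 0.902 to 4.09 FPKM in wildtype (log2 fold change 0.92, limma adjusted p = 0.0898, and scaled 0.78, 0.0985). Tubb3 lay near 0 (0.11, and scaled -0.02). The part of these cell types in the values of Sema4d, Sema7a, Ephb3 and Efnb2 was not tested.

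The ephrins and Eph receptors lay mostly on the lower side. Ephb3, a receptor kinase for the B-type ephrins, was listed at 11.7, 16.9, 14.3 and 11.8 FPKM in Has-tKO 1 to 4, against 16.4, 22.9, 21.3 and 23.2 FPKM in wildtype 1 to 4. On this scale Has-tKO 2 lay just above wildtype 1 and the groups overlapped, with a log2 fold change of -0.58 (SE 0.18, limma adjusted p = 0.116). After scaling the Has-tKO libraries had 10.8, 15.3, 13.1 and 11.4 FPKM and the wildtype libraries 23.97, 21.1, 20.3 and 23.4 FPKM. All 4 Has-tKO values then lay below all 4 wildtype values, and Ephb3 fell, with means of 12.6 ± 1.99 FPKM in Has-tKO and 22.2 ± 1.77 FPKM in wildtype (SD, n = 4 each, log2 fold change -0.78, SE 0.13, limma adjusted p = 0.0198). With 1 library left out, the scaled fit called Ephb3 in 4 of 8 cases. It lost the call without Has-tKO 1 (adjusted p = 0.0718), Has-tKO 4 (0.0535), wildtype 2 (0.0604) or wildtype 4 (0.0810), while its log2 fold change stayed between -0.86 and -0.71. On the deposited scale it was called without wildtype 1 (-0.69, adjusted p = 0.0303). Without Has-tKO 4 and wildtype 1, the libraries that stood apart, it was called on the deposited scale (-0.63, adjusted p = 0.0400) and after scaling (-0.70, adjusted p = 0.0414).

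Efnb2, the B-type ephrin known from osteoclasts and arterial endothelium, was the lower of the 2 tested B-type ephrins. It was listed at 2.29, 2.81, 2.79 and 2.41 FPKM in Has-tKO, against 3.53, 4.12, 3.46 and 4.41 FPKM in wildtype. All Has-tKO values lay below all wildtype values on this scale, wildtype 1 included (log2 fold change -0.45, SE 0.15, limma adjusted p = 0.144). After scaling Efnb2 fell, at 2.38 ± 0.202 FPKM in Has-tKO and 4.18 ± 0.803 FPKM in wildtype (SD, n = 4 each, log2 fold change -0.60, SE 0.13, limma adjusted p = 0.0432). After scaling the call held without wildtype 1 (adjusted p = 0.0471) or wildtype 3 (0.0289), and was lost without any other single library (adjusted p = 0.0807 to 0.153) and without wildtype 1 and Has-tKO 4 together (0.0661). Efnb1, the other B-type ephrin and the most abundant ephrin, had 10.5, 13.7, 12.7 and 13.7 FPKM in Has-tKO and 10.5, 15.2, 11.2 and 14.2 FPKM in wildtype. These groups overlapped throughout, and the 95% interval of the log2 fold change ran from -0.38 to 0.37 on the deposited scale and from -0.51 to 0.11 after scaling.

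Efna1, an A-type ephrin anchored by a lipid and the main ligand of EphA2, was listed at 1.92, 2.91, 3.77 and 3.43 FPKM in Has-tKO, against 5.75, 4.87, 4.43 and 4.83 FPKM in wildtype. The groups did not overlap on either scale, and the call was missed on both (log2 fold change -0.60, SE 0.18, limma adjusted p = 0.114, and after scaling -0.76, SE 0.22, adjusted p = 0.0975). Wildtype 1 was the highest library for Efna1, although it was the lowest for most members. Efna4, another A-type ephrin, had 0.967 to 2.85 FPKM in Has-tKO and 1.89 to 3.43 FPKM in wildtype, overlapping on both scales (log2 fold change -0.26, adjusted p = 0.585, and scaled -0.39, adjusted p = 0.341). Efna1, Efna3 and Efna4 are neighbours within 1 Mb on chromosome 3, where Sema4a lies too.

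Among the 7 tested Eph receptors 1 had a scaled log2 fold change above 0 and 6 below, and on the deposited scale 2 lay above and 5 below. Of all 9915 tested genes 5108 lay above 0 after scaling and 7272 as deposited. Epha2 was listed at 14.7, 17.8, 17.3 and 17.1 FPKM in Has-tKO and 12.8, 22.9, 17.8 and 20.7 FPKM in wildtype, which overlapped (log2 fold change -0.11, limma adjusted p = 0.788). After scaling its groups separated, at 15.5 ± 1.32 FPKM in Has-tKO and 19.4 ± 1.98 FPKM in wildtype (SD, n = 4 each), without passing (log2 fold change -0.31, limma adjusted p = 0.187). Ephb6, a member of the family without kinase activity, separated in the same way after scaling, with 6.61, 9.47, 7.05 and 9.65 FPKM in Has-tKO and 11.1, 10.6, 10.7 and 12.9 FPKM in wildtype, and did not pass (-0.43, adjusted p = 0.137). As deposited it had 7.14, 10.5, 7.71 and 10.02 FPKM in Has-tKO and 7.58, 11.4, 11.3 and 12.8 FPKM in wildtype, which overlapped (-0.25, adjusted p = 0.532). Ephb4, the chief receptor of ephrin-B2, had 15.6 ± 1.92 FPKM in Has-tKO and 15.6 ± 3.57 FPKM in wildtype, with a 95% interval of -0.40 to 0.44 on the deposited scale and -0.42 to 0.07 after scaling. The receptor that lay above 0 on the scaled scale was Epha4, which binds both types of ephrin, at 2.72 ± 0.395 FPKM in Has-tKO and 2.00 ± 0.545 FPKM in wildtype (0.32, adjusted p = 0.366, and scaled 0.18, adjusted p = 0.468). Ephb2 had 2.85 ± 0.391 FPKM in Has-tKO and 3.54 ± 1.18 FPKM in wildtype, and Epha1 1.91 ± 0.307 FPKM in Has-tKO and 2.00 ± 0.567 FPKM in wildtype, overlapping on both scales (Ephb2 -0.20 and scaled -0.34, Epha1 -0.03 and scaled -0.16). The scaled medians were -0.50 for the 4 ephrins and -0.31 for the 7 Eph receptors, against 0.01 for all tested genes.

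**Figure D2:**
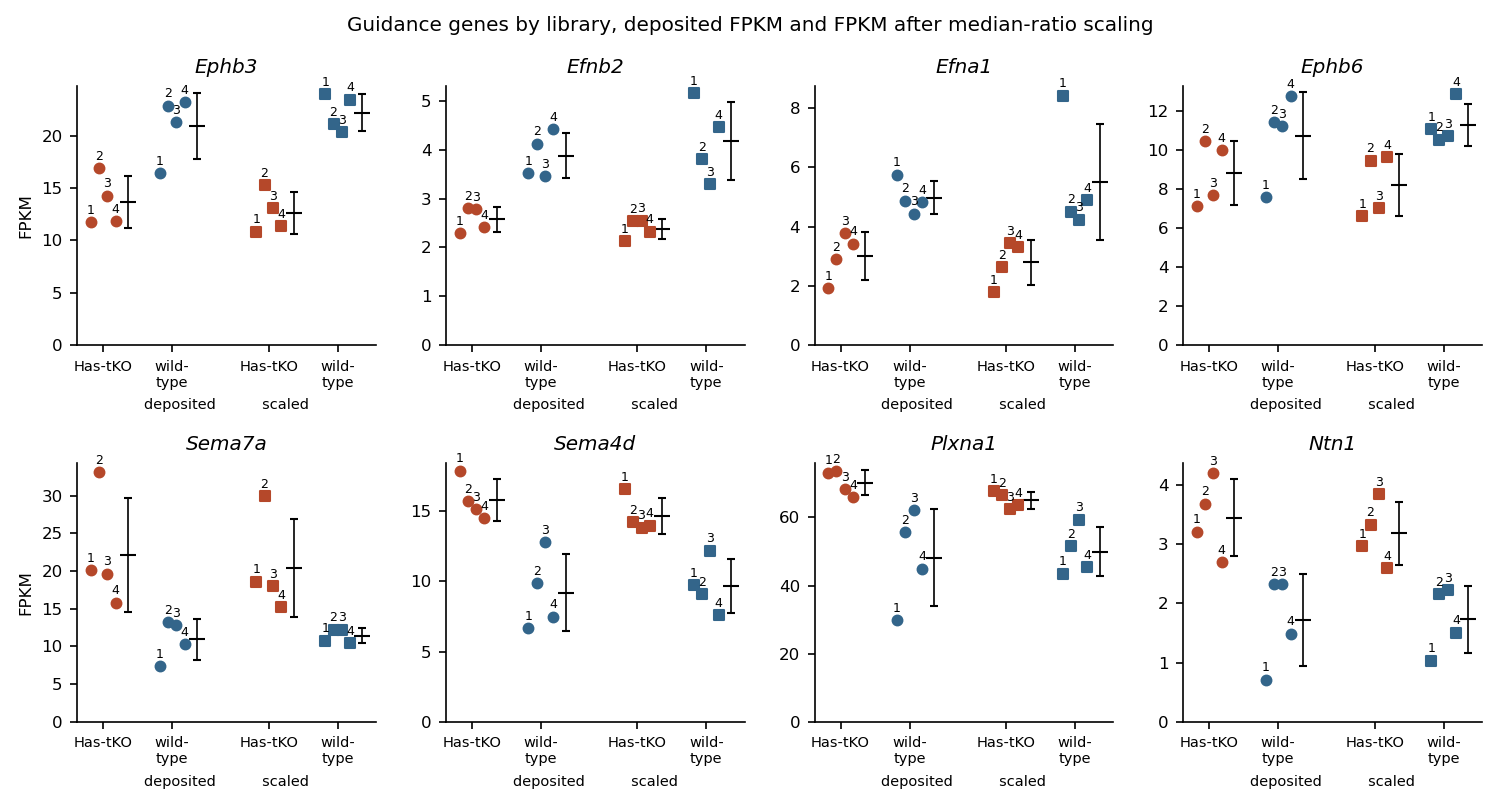
FPKM of 8 guidance genes in each library, with the library number beside each point, as deposited (circles, left) and after median-ratio scaling (squares, right), Has-tKO in red and wildtype in blue. Bars give mean and SD of 4 libraries. Ephb3 and Ephb6 overlap between the genotypes as deposited and separate after scaling, and Efnb2, Efna1, Sema7a, Sema4d, Plxna1 and Ntn1 separate on both scales.

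The semaphorins differed among themselves. Sema7a, a lipid-anchored semaphorin that binds plexin-C1 and beta-1 integrins, was the most abundant of the 11 tested, with 20.1, 33.1, 19.7 and 15.8 FPKM in Has-tKO, against 7.35, 13.2, 12.8 and 10.3 FPKM in wildtype. Every Has-tKO library lay above every wildtype library on both scales, Has-tKO 2 being the highest. The difference did not pass (log2 fold change 0.94, SE 0.24, limma adjusted p = 0.0701, and after scaling 0.75, SE 0.19, adjusted p = 0.0676). It passed on the deposited scale without wildtype 1 and Has-tKO 4 (0.91, adjusted p = 0.0422). Without Has-tKO 2 the log2 fold change was 0.73 as deposited and 0.56 after scaling.

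Sema4d, a membrane semaphorin made by osteoclasts and lymphocytes that binds plexin-B1, was listed at 17.9, 15.7, 15.1 and 14.5 FPKM in Has-tKO, against 6.67, 9.85, 12.8 and 7.50 FPKM in wildtype. The groups did not overlap on either scale, wildtype 3 coming closest to Has-tKO. The difference missed the threshold (log2 fold change 0.76, SE 0.20, limma adjusted p = 0.0718, and scaled 0.57, SE 0.14, adjusted p = 0.0670) and passed without wildtype 3 (0.91, adjusted p = 0.0243, and scaled 0.68, adjusted p = 0.0290). Sema3c, a secreted semaphorin, had 7.50, 7.44, 6.24 and 3.91 FPKM in Has-tKO and 0.995, 5.02, 3.82 and 4.18 FPKM in wildtype. Wildtype 1 was far below the rest, Has-tKO 4 lay among the other wildtype libraries, and Sema3c was called in 1 alternative, the deposited scale without these 2 libraries. Sema3g, another secreted member, lay on the other side, with scaled values of 0.800, 1.17, 0.935 and 0.5001 FPKM in Has-tKO and 1.497, 1.63, 1.52 and 1.21 FPKM in wildtype, which did not overlap (log2 fold change -0.42, limma adjusted p = 0.148), while as deposited it had 0.864, 1.29, 1.02 and 0.519 FPKM in Has-tKO and 1.02, 1.76, 1.59 and 1.20 FPKM in wildtype, which did (-0.32, adjusted p = 0.389). The remaining 7 tested semaphorins, Sema3f, Sema4a, Sema4b, Sema4c, Sema5a, Sema6b and Sema6d, overlapped between the genotypes on both scales. The highest of them was the membrane semaphorin Sema4c, with 6.81 ± 0.656 FPKM in Has-tKO and 5.63 ± 1.18 FPKM in wildtype (0.25, limma adjusted p = 0.485, and scaled 0.08, adjusted p = 0.715), and their scaled log2 fold changes ran from -0.30 for Sema5a to 0.35 for Sema4a.

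Plexins were the most abundant members. Plxnb2, a receptor of class 4 semaphorins, and Plxna1, a receptor of class 3 and class 6 semaphorins, together made up 37.6% to 41.0% of the summed FPKM of all 58 genes in Has-tKO and 32.0% to 39.4% in wildtype. Plxna1 was listed at 73.1, 73.5, 68.2 and 65.9 FPKM in Has-tKO, against 29.8, 55.8, 62.2 and 44.9 FPKM in wildtype. All Has-tKO libraries lay above all wildtype libraries on both scales, and the test was not passed (log2 fold change 0.58, SE 0.21, limma adjusted p = 0.187, and scaled 0.38, SE 0.12, adjusted p = 0.132). Without wildtype 1 the deposited log2 fold change of Plxna1 was 0.38. Plxnb2 had 70.0, 77.3, 62.8 and 62.5 FPKM in Has-tKO and 34.2, 71.0, 72.4 and 62.1 FPKM in wildtype. Apart from wildtype 1 these libraries lay in one range, and the 95% interval of the scaled log2 fold change was -0.26 to 0.32. Plxnc1, the plexin that binds Sema7a, had 4.65 ± 1.17 FPKM in Has-tKO and 3.46 ± 1.11 FPKM in wildtype (SD, n = 4 each), overlapping on both scales (log2 fold change 0.36, adjusted p = 0.435, and scaled 0.20, adjusted p = 0.537). Plxna3 had 7.96 ± 0.768 FPKM in Has-tKO and 6.45 ± 1.48 FPKM in wildtype, and Plxna4 1.42 ± 0.459 FPKM in Has-tKO and 1.85 ± 0.894 FPKM in wildtype, also overlapping (Plxna3 0.29 and scaled 0.11, Plxna4 -0.19 and scaled -0.29).

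Netrin-1 (Ntn1), a secreted cue that Dcc and Unc5 receptors bind, was listed at 3.21, 3.68, 4.21 and 2.70 FPKM in Has-tKO, against 0.708, 2.33, 2.33 and 1.49 FPKM in wildtype. The groups were apart on both scales, with wildtype 1 the lowest, and the call was missed (log2 fold change 0.75, SE 0.22, limma adjusted p = 0.108, and scaled 0.63, SE 0.17, adjusted p = 0.0852). Ntn4, a netrin of basement membranes, had 1.34, 1.41, 1.32 and 0.925 FPKM in Has-tKO and 0.810, 1.04, 0.351 and 0.912 FPKM in wildtype, overlapping at Has-tKO 4 and wildtype 2 (0.35, adjusted p = 0.336, and scaled 0.24, adjusted p = 0.491). Unc5b, the receptor of this family with the highest level, had 33.04, 41.9, 31.1 and 29.9 FPKM in Has-tKO and 16.2, 32.3, 26.9 and 28.6 FPKM in wildtype. The groups overlapped at Has-tKO 3, Has-tKO 4 and wildtype 2 (0.40, adjusted p = 0.365, and scaled 0.21, adjusted p = 0.433), and without wildtype 1 the deposited log2 fold change was 0.20. Unc5c had 2.16, 2.91, 2.42 and 1.78 FPKM in Has-tKO and 1.18, 3.47, 3.09 and 2.90 FPKM in wildtype, overlapping (-0.10, adjusted p = 0.847, and scaled -0.23, adjusted p = 0.498). Unc5a had 1.27 ± 0.330 FPKM in Has-tKO and 0.907 ± 0.423 FPKM in wildtype (0.27, adjusted p = 0.513, and scaled 0.18, adjusted p = 0.595), and Dcc did not exceed 0.0934 FPKM in any library.

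The Slit and Robo genes were low. Robo1 had 1.88, 1.84, 2.02 and 1.90 FPKM in Has-tKO and 1.18, 2.29, 2.02 and 2.20 FPKM in wildtype, with the Has-tKO libraries inside the wildtype range. Robo2 had 1.26, 1.95, 1.98 and 0.931 FPKM in Has-tKO and 0.941, 1.89, 1.48 and 1.39 FPKM in wildtype, overlapping. The 95% intervals of their scaled log2 fold changes were -0.35 to 0.13 for Robo1 and -0.40 to 0.28 for Robo2. Slit2, a secreted ligand of both, stayed under the level for testing, with 1.06, 1.18, 0.737 and 0.458 FPKM in Has-tKO and 0.281, 0.644, 0.421 and 0.558 FPKM in wildtype. Has-tKO 4 lay inside the wildtype range and the other 3 Has-tKO libraries above it. Robo4, an endothelial receptor, did not exceed 0.184 FPKM.

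**Figure D3:**
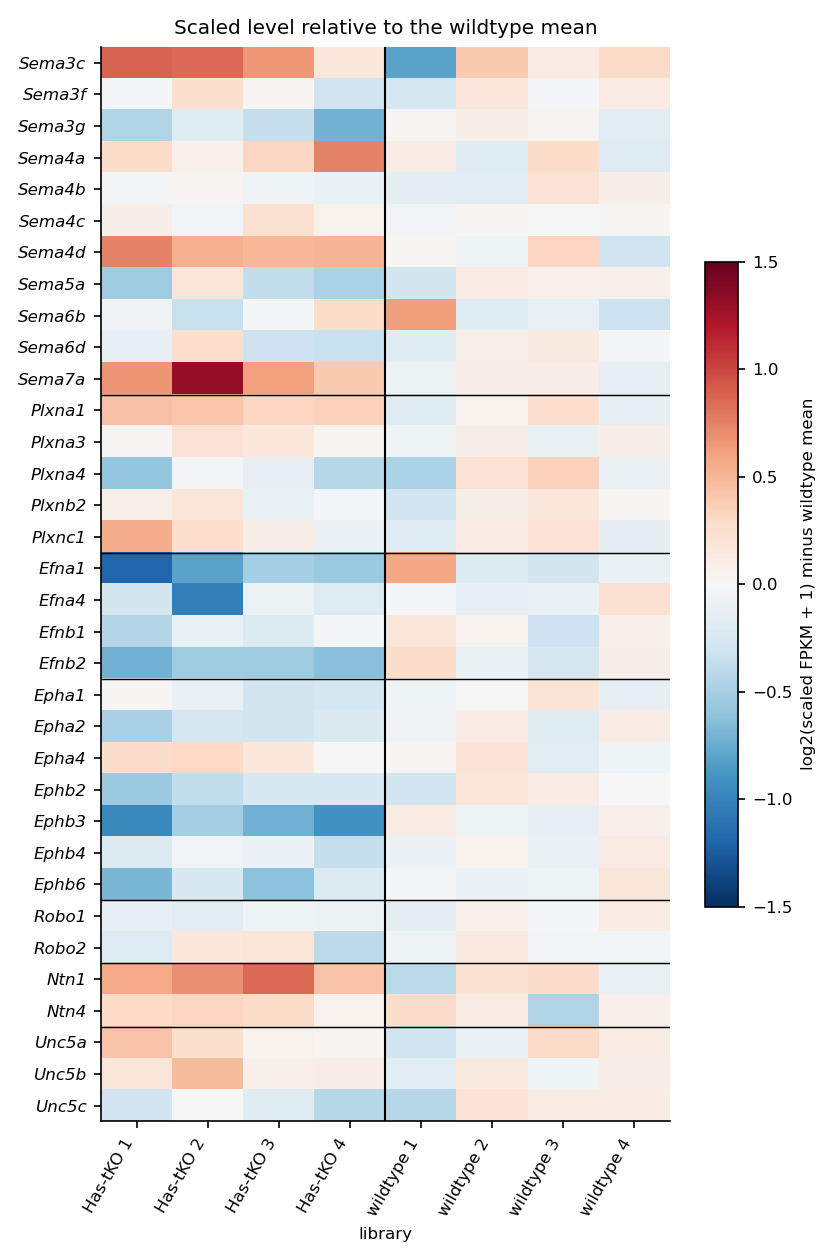
Log2(scaled FPKM + 1) of the 34 tested guidance genes in each library, minus the wildtype mean of that gene, with genes in classes separated by lines and Has-tKO to the left of wildtype. The Has-tKO columns are blue for Ephb3, Efnb2 and Efna1 and red for Sema7a, Sema4d and Ntn1, and Has-tKO 2 is the deepest red for Sema7a.

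Of the 24 members that were not tested, 4 (Sema5b, Epha6, Epha8 and Robo3) were listed at 0 in every library and 16 stayed below 0.5 FPKM in every library, those 4 included. The highest value among the 24 was 1.54 FPKM, for Epha3 in Has-tKO 2. Sema3a, a secreted semaphorin known to favour bone formation in mice, was listed at 0.270, 0.735, 0.447 and 0.451 FPKM in Has-tKO and 0.204, 0.604, 0.324 and 0.338 FPKM in wildtype, overlapping throughout. Of the 24, Sema3e was higher in Has-tKO without overlap on both scales, at no more than 0.440 FPKM, and the Eph receptor Epha7 was lower without overlap after scaling, at scaled values of 0.207 to 0.354 FPKM in Has-tKO and 0.384 to 0.609 FPKM in wildtype. On the deposited scale wildtype 1 was the lowest library for 23 of the 34 tested genes, and after scaling for 7.

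Ratios of a ligand to its receptor within a library do not depend on the scaling, and 5 pairs were compared, a measure chosen after the values had been seen. The mean log2 ratio of Efnb2 to Ephb4 was -2.59 ± 0.116 in Has-tKO and -1.98 ± 0.287 in wildtype (SD, n = 4 each). It was lower in all 4 Has-tKO libraries than in any wildtype library, by a difference of -0.61 (exact two-sided permutation p = 0.0286, which is the lowest value that 4 libraries a genotype allow, and 0.0714 adjusted over 5 pairs). The mean log2 ratio of Ntn1 to Unc5b was -3.31 ± 0.287 in Has-tKO and -4.03 ± 0.447 in wildtype, again without overlap (difference 0.72, exact permutation p = 0.0286, adjusted 0.0714, n = 4 each). The differences for Efna1 to Epha2 (-0.64, exact permutation p = 0.0571, adjusted 0.0952), Sema7a to Plxnc1 (0.54, exact permutation p = 0.0857, adjusted 0.107) and Efnb1 to Ephb2 (0.24, exact permutation p = 0.400) came with overlapping groups. None of the 5 passed after adjustment. Efnb2 to Ephb4 and Ntn1 to Unc5b had the lowest p-value that the exact permutation test allows, and still 0.0714 after adjustment. With 4 libraries a genotype the adjusted threshold could hardly be reached, so no conclusion is drawn from missing it. Wildtype 1 had the highest ratio of both Efnb2 to Ephb4 and Efna1 to Epha2, and without it these differences were -0.48 and -0.40.

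**Figure D4:**
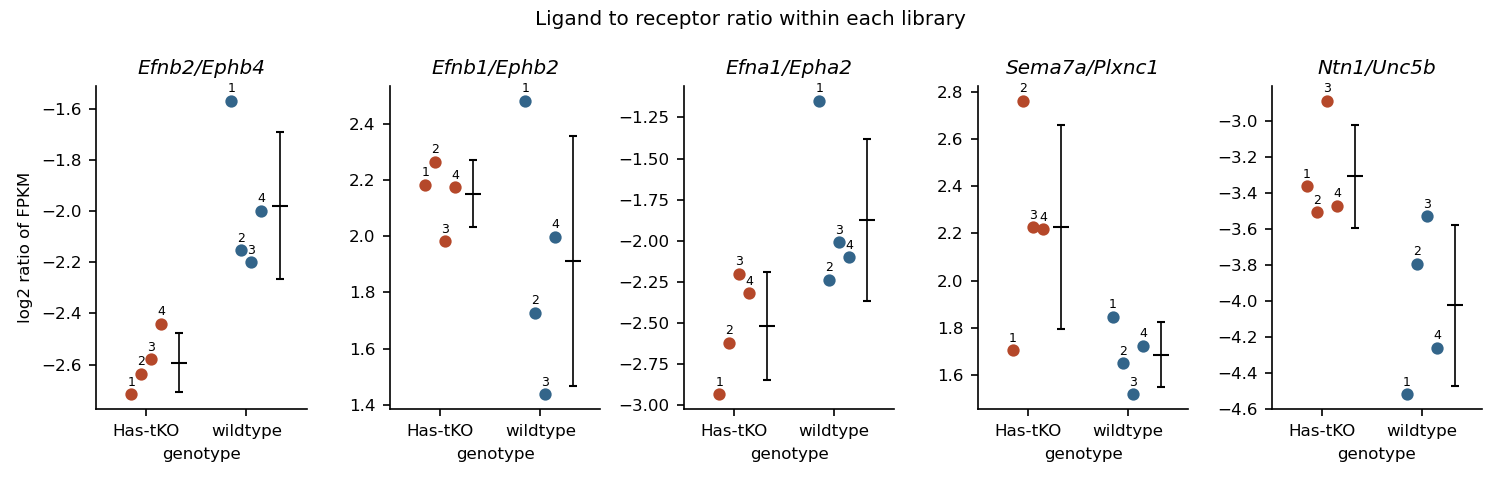
Log2 ratio of ligand to receptor FPKM in each library for 5 pairs, Has-tKO in red and wildtype in blue, numbers giving the library and bars the mean and SD of 4 libraries. The vertical axes differ between panels and do not start at 0. The Efnb2/Ephb4 points of Has-tKO lie below those of wildtype, the Ntn1/Unc5b points above, and the other pairs overlap.

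Genes that work with these receptors inside the cell or as co-receptors were taken as a list of 62, of which 44 were tested. None was called by limma on the deposited scale, and 1 fell after scaling, Ngef, a signalling protein that acts below EphA receptors, with 1.13 ± 0.412 FPKM in Has-tKO and 2.38 ± 0.239 FPKM in wildtype (SD, n = 4 each, log2 fold change -0.68, adjusted p = 0.0611, and scaled -0.81, SE 0.16, limma adjusted p = 0.0322). Over the 44, the median log2 fold change was 0.24 as deposited and 0.07 after scaling. Of 32 other guidance cues and receptors 11 were tested, none was called as deposited and 1 fell after scaling, Draxin, a secreted protein that binds Dcc and netrin-1, with 18.7 ± 1.90 FPKM in Has-tKO and 29.5 ± 9.32 FPKM in wildtype (-0.58, adjusted p = 0.223, and scaled -0.77, SE 0.14, limma adjusted p = 0.0257). Together that is 2 of 55, against 2.82% of all tested genes. Over all 55 genes limma found 0 calls on the deposited scale, and 11 at an unadjusted p under 0.05, against 16.7% of all tested genes, and after scaling 14 at an unadjusted p under 0.05, against 18.5%. With 1 library left out the scaled call held in 3 of 8 cases for each of Ngef and Draxin, those without Has-tKO 3, wildtype 1 or wildtype 3, and adjusted p reached 0.119 for Ngef and 0.0981 for Draxin. Without both Has-tKO 4 and wildtype 1, Ngef was not called (scaled adjusted p = 0.0661) and Draxin was (0.0229). As deposited, Ngef was called without Has-tKO 3 (0.0497) or wildtype 1 (0.0480), and Draxin without wildtype 1 (0.0234).

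The libraries carry no strand information, so reads of overlapping genes cannot be separated. In GENCODE M21 (GRCm38, used for neighbourhood only) 15 of the 34 tested genes overlap a gene on the other strand, Plxna1, Sema4d, Ntn1 and Ephb4 among them, while Ephb3, Efna1 and Sema7a overlap none. Efnb2 overlaps 3 transcripts on its own strand, E230020D15Rik, Gm45074 and Gm45073. None of the 34 lies within 10 Mb of Has1, Has2 or Has3.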

How the data were processed

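RNA of 8 cultures, 4 Has-tKO and 4 wildtype, was sequenced after rRNA depletion and tagmentation without strand information. The authors deposited 1 table of FPKM values, with a gene name on 49868 of 76557 loci. Per the submitters' processing notes, bcl2fastq, fastp, HISAT2, StringTie and DESeq2 were used and GRCm39 and hg38 are named as builds, with no role or version recorded. For loci below 0.5 FPKM, ratios of each library to Has-tKO 1 were set against whole numbers over a range of relative depths. At best, 11.7% to 12.5% of these ratios lay within 0.05 of a whole number. Ratios of whole reads need not be whole numbers, so this cannot tell whether low values were whole reads. The depth stayed unknown, and no count test was run. FPKM of a library shifts when a few loci take much of it, hence the scaled fit beside the deposited one.

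The locus with the highest mean was kept for each gene name, and genes that reached 1 FPKM in 4 or more of the 8 libraries entered the test, on log2(FPKM + 1), which understates changes of low genes, with limma 3.58.1 (trend) in R 4.3.3, Benjamini-Hochberg adjusted over 9915 genes, with a threshold of 0.05. The samples of the 2 genotypes entered 1 fit without a replicate block. The scaled fit divides each library by its median ratio to the average library. SD is over 4 libraries. Ratios were compared by exact two-sided permutation tests. The labels give each library its own mouse.

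Members and gene lists were chosen with earlier results of these data known. Values per library are given for members that passed in either fit, for tested members whose genotypes did not overlap on either scale, and for the 2 tested members of each class with the highest mean, and partner genes are named where they passed. Ligand and receptor pairs were chosen on known binding, and their ratio test after the values had been seen. Slit2 and Sema3a are given as ligands of such pairs, and Sema3c, Efna4, Epha4, Epha7, Robo4 and Dcc after their values were seen. The alternatives were upper-quartile scaling, another pseudocount, other filters, summed loci, no trend, a replicate block and libraries left out. The script was tested on simulated data.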

Additional observations from a re-analysis of the deposited data

How the results depend on the processing

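Over all 9915 genes the count of calls was 176 on the deposited FPKM, 280 with median-ratio and also 280 with upper-quartile scaling, 111 with a pseudocount of 0.1 and 2 without a filter on low values. It was 358 without wildtype 1 and Has-tKO 4, and 269 with scaling besides. With 1 library left out it ran from 10 (without wildtype 4) to 349 (without wildtype 1). Scaling also moved the split, from 157 higher and 19 lower to 172 higher and 108 lower.

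Among the 34 guidance genes 0 were called on the deposited scale, 2 with median-ratio scaling and the same 2 with upper-quartile scaling. Without wildtype 1 and Has-tKO 4 the count was 3 (Ephb3, Sema3c and Sema7a), and 1 (Ephb3) with scaling besides. It ran from 0 to 3 with 1 library left out. Among the 55 partner genes 0 were called, 2 with median-ratio scaling, 3 with upper-quartile scaling, 1 without both libraries on either scale, and 0 to 5 with 1 library left out. The median of the 34 genes kept within its spread, from -0.10 to 0.12.

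The replicate numbers did not pair the samples: correlations of same-numbered samples were -0.08, 0.31, -0.12 and -0.06, and 1 of 4 numbers correlated best within itself. With a replicate block 147 genes were called, among them 1 guidance gene (Sema7a, limma adjusted p = 0.0490). With the replicate block and median-ratio scaling 40 were called and 0 guidance genes, Ephb3 having adjusted p = 0.0833 and Efnb2 0.145.

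Genes close to 0 changed sign. Robo1 was at -0.11 with median-ratio scaling and with the block and scaling, -0.13 with upper-quartile scaling, -0.12 without both libraries, -0.17 with scaling besides, and -0.16 to 0.077 with 1 library left out. Robo2 was at -0.063 with median-ratio scaling and with the block and scaling, -0.083 with upper-quartile scaling, and -0.14 to 0.17 with 1 library left out. Plxnb2 was at -0.047 without both libraries after scaling and -0.067 to 0.34 with 1 left out, Efnb1 at -0.30 to 0.075 and Unc5c at -0.38 to 0.011. The causes were not tested. Since the depth is unknown, how far it limits the low members cannot be given.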
